A study of Homo sapiens with 18 samples.

Results

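The genes described here were 33 genes spread along the long arm of chromosome 22, taken in their order from DGCR8 near the proximal end to SHANK3 near the tip, with MIF among them. They were picked by name after earlier results of these libraries were known, for how their counts moved between days in MLL-AF4 cells and between settings. All 33 were found among the 54425 rows of the count table, 32 by their exact symbol and 1, ADRBK2, under its current symbol GRK3. RAC2, a small GTPase of blood cells, had only 1 to 14 counts per library and did not pass the filter on low counts, so 32 members were among the 17660 genes tested. RefSeq positions placed 808 rows on the chromosome, of which 392 were tested, and 360 of these were not members.

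The counts came from ATAC-seq, in which a transposase cuts and tags accessible DNA, in HEK293T cells, a line from human embryonic kidney. MLL-AF4 and AF4-MLL are the reciprocal fusions of KMT2A (MLL) and AFF1 (AF4) that form in acute leukemia. The labels gave 3 libraries for each of 6 groups: cells with inducible MLL-AF4, with inducible AF4-MLL, or with both fusions (co-expression cells, where MLL-AF4 was constitutive and AF4-MLL could be induced), each on day 3 and on day 28. All groups shared the induction with doxycycline at 1 µg/ml for 48 h, and no library without a fusion construct was labelled. By the paper's account the inducible transgenes had been shut down by day 28, while MLL-AF4 in co-expression cells was constitutive. The constructs were Sleeping Beauty transposon vectors, and the co-expression cells were built on a line that already expressed MLL-AF4 and received AF4-MLL by transient transfection, whose induction ended on day 3. They are populations and not single clones. A difference between co-expression cells and cells with a single fusion therefore cannot be told apart from a difference between the lines. The labels number the replicates but do not say that they came from separate cultures, so p-values measure the spread between these libraries.

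As background, MLL-AF4 keeps the part of MLL that binds DNA, including a CXXC zinc finger for CpG pairs without methylation, and joins it to the part of AF4 that recruits factors of transcription elongation. AF4-MLL carries the C-terminal part of MLL, with the SET domain that methylates histone H3. Chromosome 22 is small and dense in genes. A count per gene in ATAC-seq grows with accessibility and also with the number of copies of the DNA, and these cannot be told apart here.

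Libraries held from 442159 to 3539937 counts. Nuclear genes, without the 37 mitochondrial genes and 397 nuclear copies of mitochondrial genes, received 325177 to 369255 counts in the MLL-AF4 libraries of day 3 and from 284109 to 890525 over all libraries. Mitochondrial genes took 32.7% to 45.6% of the counts in libraries of day 3 and 63.6% to 68.5% in those of day 28. A member had a median of 28 counts per library and a range from 1 to 165, and 19 of the tested members had a mean of at least 30 counts. All values per library below are normalized counts (CPM, relative to library sizes scaled by TMM), and they are not divided by gene length. Differences are given in log2 units, each with its standard error (SE), and came from a single edgeR quasi-likelihood fit to all 18 libraries. A called gene had a p under 0.05 after Benjamini-Hochberg adjustment over the genes tested. KMT2A, the gene of MLL, lay higher in AF4-MLL than in MLL-AF4 cells by 1.39 on day 3 and 1.06 on day 28. Co-expression cells lay between, below AF4-MLL cells by log2 differences of −0.825 and −0.445 and above MLL-AF4 cells by 0.562, which was not called, and 0.618. The constructs hold unlike parts of MLL, and these counts do not separate construct DNA from the KMT2A gene of the cells. The 5 genes set as markers of HEK293T cells all passed the filter. VIM had the highest mean of them with 75.0 CPM and 46 to 145 counts per library. PAX2, KRT8, KRT18 and NEFM had means of 16.5, 26.8, 15.5 and 21.1 CPM. CD3E, CD14 and ALB, markers of blood and liver cells, stayed under the filter. PTPRC, COL1A1 and PECAM1, markers of other cell types, passed it with means of 13.1, 21.5 and 14.7 CPM. Passing the filter therefore did not separate cell types. These are counts of DNA fragments and not of RNA.

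The stretches upstream of 6 members show what kind of DNA lies at the start of the genes that the results turn on. MIF and DDT were the members without a higher normalized count on day 28 in MLL-AF4 cells. TTC28 had the largest change in these cells among members with an entry in the promoter table. MAPK11, SBF1 and SHANK3 lie at the tip of the chromosome. Each line gives the 250 bases before the RefSeq start in GRCh38.p14, 5′ to 3′ on the strand of the gene, in lower case with CpG pairs in capitals. The stretches are chr22:23894133-23894382 (plus strand), chr22:23980505-23980754 (minus), chr22:28679841-28680090 (minus), chr22:50270381-50270630 (minus), chr22:50475036-50475285 (minus) and chr22:50672573-50672822 (plus), and none of them reaches into the transcribed part.
MIF: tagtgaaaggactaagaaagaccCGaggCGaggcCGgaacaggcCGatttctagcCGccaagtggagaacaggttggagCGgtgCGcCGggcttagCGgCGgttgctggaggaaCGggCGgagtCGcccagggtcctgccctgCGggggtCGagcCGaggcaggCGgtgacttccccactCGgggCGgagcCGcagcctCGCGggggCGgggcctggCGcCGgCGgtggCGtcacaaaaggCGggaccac
DDT: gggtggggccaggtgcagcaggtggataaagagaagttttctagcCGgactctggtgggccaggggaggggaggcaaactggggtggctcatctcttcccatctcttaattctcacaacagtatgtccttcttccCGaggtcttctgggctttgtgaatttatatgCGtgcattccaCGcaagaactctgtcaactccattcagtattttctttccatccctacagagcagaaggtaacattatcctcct
TTC28: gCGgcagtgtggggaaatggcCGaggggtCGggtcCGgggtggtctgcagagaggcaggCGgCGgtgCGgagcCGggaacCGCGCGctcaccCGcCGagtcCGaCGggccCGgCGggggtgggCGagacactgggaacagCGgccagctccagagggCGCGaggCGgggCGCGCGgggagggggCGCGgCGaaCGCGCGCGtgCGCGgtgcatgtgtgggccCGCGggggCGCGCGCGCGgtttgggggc
MAPK11: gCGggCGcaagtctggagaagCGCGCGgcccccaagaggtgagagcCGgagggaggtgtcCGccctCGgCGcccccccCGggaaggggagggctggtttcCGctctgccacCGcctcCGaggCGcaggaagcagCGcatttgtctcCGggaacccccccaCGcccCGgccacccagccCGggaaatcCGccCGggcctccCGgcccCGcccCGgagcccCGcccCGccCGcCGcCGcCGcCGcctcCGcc
SBF1: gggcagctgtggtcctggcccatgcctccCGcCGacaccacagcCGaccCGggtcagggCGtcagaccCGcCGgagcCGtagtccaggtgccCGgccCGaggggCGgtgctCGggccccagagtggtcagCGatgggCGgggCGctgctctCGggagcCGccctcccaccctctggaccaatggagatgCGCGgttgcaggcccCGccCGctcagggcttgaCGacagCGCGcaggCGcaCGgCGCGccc
SHANK3: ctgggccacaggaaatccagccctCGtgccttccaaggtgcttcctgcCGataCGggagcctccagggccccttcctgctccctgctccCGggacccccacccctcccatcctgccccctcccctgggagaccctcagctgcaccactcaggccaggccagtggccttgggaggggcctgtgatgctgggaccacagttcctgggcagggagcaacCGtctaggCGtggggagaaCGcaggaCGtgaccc
MIF had 28 CpG pairs in its 250 bases, which 15.52% of 27305 promoters matched or exceeded, and DDT had 4, which 69.91% matched or exceeded. TTC28 had 41, a number reached by 1.68% of promoters. MAPK11 had 32, SBF1 28 and SHANK3 8 CpG pairs. The 26 members with an entry had a median of 25 CpG pairs, against 14 for 527 promoters of chromosome 22 and 11 for all promoters. These comparison sets were not limited to genes tested, of which 12181 had an entry, 265 of them on chromosome 22. The GC box GGGCGG, read on both strands and holding a CpG pair itself, was found in 17 of the 26 (65.4%), in 50.1% of chromosome 22 promoters and in 42.3% of all. DDT, TTC28 and SHANK3 held no such box and MAPK11 held 5. ADRBK2, SEZ6L, RAC2, SOX10, SCUBE1, EFCAB6 and CELSR1 had no entry.

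In MLL-AF4 cells, most members had higher normalized counts on day 28 than on day 3. The log2 change was positive in 30 of 32 members (93.8%), with a median of 0.46, and among all genes tested it was positive in 50.4%, with a median of 0.00. This was one of the contrasts the members were chosen for, so these values are a description and carry no test. Called higher were 5 members, against 1.29% of all genes tested. They were ADRBK2, TTC28, EP300, EWSR1 and SMARCB1, of which the last 3 are named after their values were seen. In 13 of 32 members all 3 libraries of day 28 lay above all 3 of day 3, against 9.67% of all genes tested. The 360 other genes of the chromosome had a median of 0.26 and were positive in 81.1%. Chromosomes 19 and 17 stood beside it with medians of 0.28 and 0.25, and among 23 chromosomes chromosome 22 ranked 2.

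**Figure D1:**
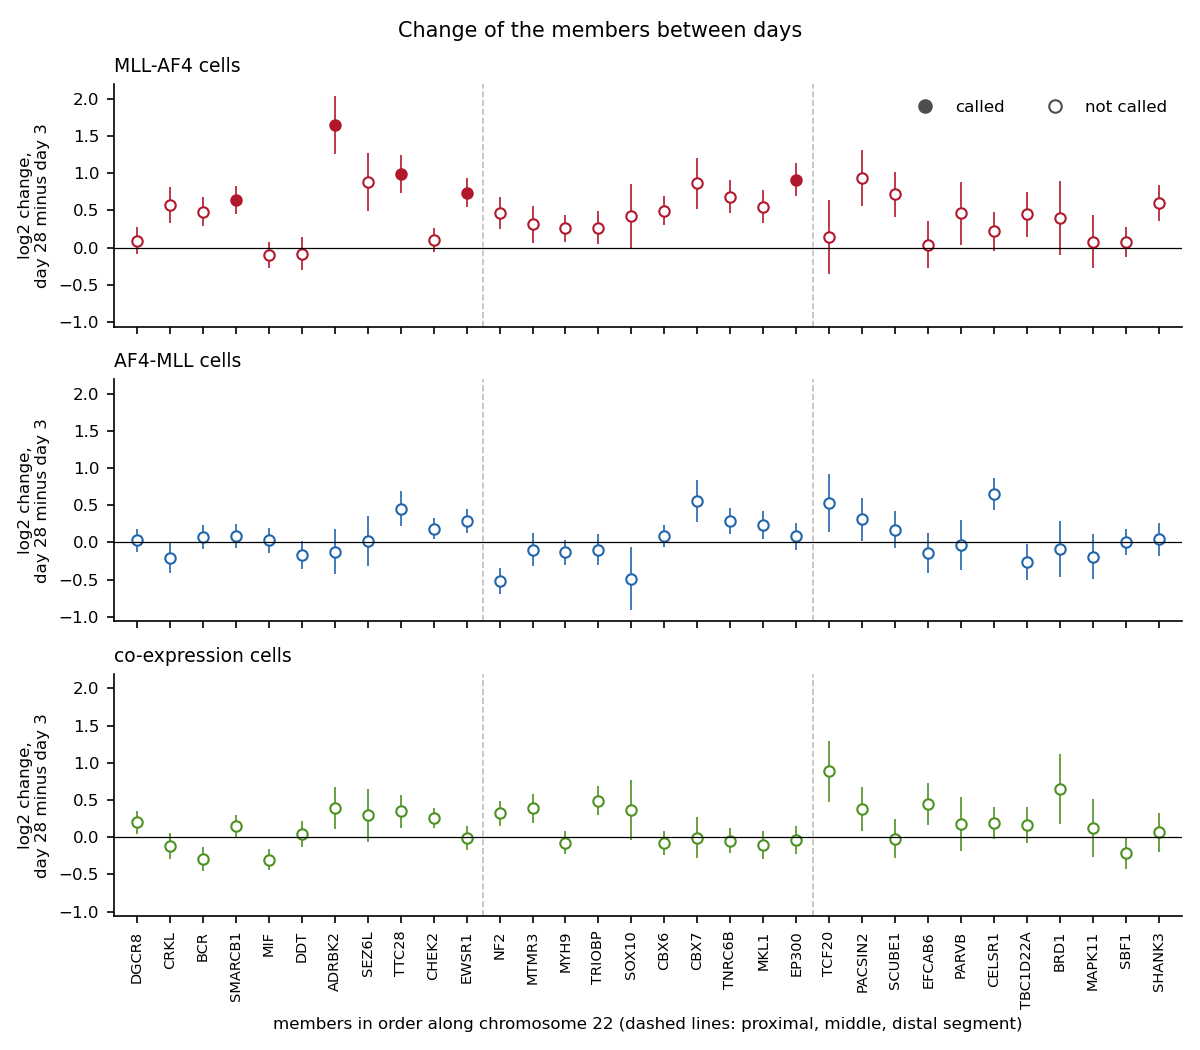
Log2 change from day 3 to day 28 (y axis, points) with its SE (bars) for the 32 tested members in order along chromosome 22 (x axis), one panel for each setting, filled where called. In MLL-AF4 cells 30 of 32 points lie above 0 and 5 are filled, in AF4-MLL cells 19 and in co-expression cells 20 lie above 0 and none is filled.

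The member with the largest change was ADRBK2, a kinase that desensitizes G protein-coupled receptors. In MLL-AF4 cells its normalized counts were 2.23, 5.07 and 9.25 CPM on day 3 and 14.0, 17.9 and 20.6 CPM on day 28 (log2 change 1.65, SE 0.39). The groups did not overlap, and day 3 was the lowest of the 6 groups for this gene. TTC28, a protein with tetratricopeptide repeats involved in cell division, had 18.97, 17.8 and 11.6 CPM on day 3 and 37.1, 30.7 and 28.6 CPM on day 28 (log2 change 0.99, SE 0.25). All 3 libraries of day 28 again lay above all 3 of day 3.

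At the other end stood the tautomerases MIF and DDT, neighbors and paralogs. For MIF, a cytokine, the MLL-AF4 libraries held 44.6, 58.4 and 46.2 CPM on day 3 and 46.97, 48.5 and 42.1 CPM on day 28 (log2 change −0.10, SE 0.18). DDT had 30.1, 30.5 and 26.6 CPM on day 3 and 32.96, 25.7 and 24.2 CPM on day 28 (log2 change −0.08, SE 0.22). In both genes the days overlapped. MIF shares its position with MIF-AS1 and DDT with DDTL and GSTT2, and reads of overlapping genes cannot be told apart in this assay.

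By role, the change in MLL-AF4 cells was positive in every member of 5 of the 6 groups and negative in both tautomerases. Among the 6 chromatin regulators the median was 0.57. EP300, a histone acetyltransferase, had 11.2, 36.8 and 21.96 CPM on day 3 and 46.15, 41.3 and 42.1 CPM on day 28. Its log2 change of 0.91 rested on single libraries, being 0.56 without replicate 1 of day 3 and 1.38 without replicate 2. SMARCB1, a core subunit of the SWI/SNF remodeler, had 39.1, 34.2 and 30.1 CPM on day 3 and 56.9, 49.1 and 58.2 CPM on day 28 (log2 change 0.64, SE 0.19). In both genes the days did not overlap. CBX6 and CBX7 read methylated histone H3 as parts of Polycomb complexes. CBX6 had 36.8, 35.5 and 32.4 CPM on day 3 and 36.3, 48.0 and 65.3 CPM on day 28, which overlapped. CBX7 had 12.3, 8.88 and 5.78 CPM on day 3 and 13.2, 17.3 and 18.8 CPM on day 28, which did not. Neither was called (log2 0.50, SE 0.19, and 0.86, SE 0.34). TCF20, a nuclear coregulator, and BRD1, a bromodomain subunit of acetyltransferase complexes, had fewer counts and had changes of 0.145 and 0.395.

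The 7 tested genes of signaling and tumor suppression had a median of 0.48 in MLL-AF4 cells, from 0.08 for MAPK11, a stress-activated kinase, to 1.65 for ADRBK2. CRKL, an adaptor that carries signals from tyrosine kinases, had 21.2, 20.3 and 18.5 CPM on day 3 and 25.6, 36.3 and 24.2 CPM on day 28, without overlap and without a call. The 3 genes of RNA binding and small RNA had changes of 0.09 for DGCR8, the partner of DROSHA, 0.68 for TNRC6B, an Argonaute partner, and 0.74 for the RNA-binding protein EWSR1. EWSR1 was called and had 27.9, 27.9 and 32.4 CPM on day 3 and 53.6, 43.5 and 52.8 CPM on day 28, without overlap. The 8 genes of cytoskeleton, adhesion and membrane had a median of 0.38 and the 6 genes of development and nervous system a median of 0.515. In the first of these groups SBF1, a myotubularin relative without phosphatase activity, had the smallest change with 0.07. In the second, SEZ6L, a membrane protein of neurons, had the largest with 0.885.

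How many members were called depended on single libraries. The count of 5 became 1 when replicate 1 of day 3 was left out and 3 when replicate 3 of day 3, replicate 1 of day 28 or replicate 3 of day 28 was, all of MLL-AF4 cells. ADRBK2 and EP300 were no longer called without the first of these. The Wald test of DESeq2 called 3 and gave no adjusted p for ADRBK2. The MLL-AF4 libraries of day 3 had the lowest group mean for 19 of 32 members and the highest for none, while the MLL-AF4 libraries of day 28 had the highest for 13. The members were chosen for these values, and this ranking was not counted over all genes tested. Chromosomes 17 and 19 also had their lowest mean shares of nuclear counts in MLL-AF4 cells on day 3, with 5.30% and 4.50%. The day 3 libraries of MLL-AF4 cells also had low nuclear counts, whose part in the result was not tested.

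The day changes of AF4-MLL and co-expression cells follow by arithmetic from the MLL-AF4 change and the setting differences that the members were chosen for, so they too are a description. None of the 32 members was called in AF4-MLL cells, against 0.606% of all genes tested, and 3 members had an unadjusted p under 0.05, as had 1640 of the 17660 genes. None was called in co-expression cells, also against 0.606%, and again 3 members had an unadjusted p under 0.05, as had 1680 genes. DESeq2 called none in either. The log2 change was positive in 19 of 32 members in AF4-MLL cells (median 0.03) and in 20 of 32 in co-expression cells (median 0.16), beside 49.6% and 49.8% of all genes tested. It ran from −0.52 for NF2 to 0.65 for CELSR1 in AF4-MLL cells and from −0.30 for MIF to 0.89 for TCF20 in co-expression cells. In 3 members of each setting all libraries of day 28 lay above all of day 3, against 6.96% and 6.85% of all genes tested. The 2 changes shared no library. The interaction of co-expression and AF4-MLL cells called no member and 0 of all genes tested by edgeR and by DESeq2, with 2 members and 892 genes at an unadjusted p under 0.05 by edgeR. These 2 were NF2 and TRIOBP, an actin-binding protein whose log2 difference was 0.59 (SE 0.29). The interaction is also a difference between settings and is no independent test of the members.

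MIF was among the members not called. In AF4-MLL cells it had 36.7, 53.5 and 40.1 CPM on day 3 and 50.8, 37.01 and 38.4 CPM on day 28 (log2 change 0.03, SE 0.17). In co-expression cells it had 50.7, 63.4 and 68.3 CPM on day 3 and 45.6, 51.1 and 54.5 CPM on day 28 (log2 change −0.30, SE 0.14). In both settings the days overlapped, and the interaction was −0.33 (SE 0.22). The group means, from the highest, were 60.8 ± 9.11 CPM (SD, n = 3) in co-expression cells on day 3, 50.4 ± 4.49 in the same cells on day 28, and 49.7 ± 7.5 and 45.9 ± 3.37 in MLL-AF4 cells on day 3 and day 28. AF4-MLL cells followed with 43.4 ± 8.89 on day 3 and 42.1 ± 7.59 on day 28. Libraries of neighbors in this order overlapped throughout.

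ADRBK2 and TTC28, which stood out in MLL-AF4 cells, were not called in the other settings. ADRBK2 had 12.1, 10.1 and 13.9 CPM on day 3 and 15.6, 11.1 and 6.98 CPM on day 28 in AF4-MLL cells (log2 change −0.12, SE 0.31). In co-expression cells it had 13.3, 5.22 and 16.4 CPM and then 15.5, 16.8 and 13.3 CPM (log2 change 0.39, SE 0.28). TTC28 had 15.9, 15.9 and 18.5 CPM and then 16.9, 26.5 and 25.1 CPM in AF4-MLL cells (log2 change 0.45, SE 0.23). Co-expression cells had 20.7, 16.4 and 21.2 CPM and then 21.2, 27.4 and 29.2 CPM of this gene (log2 change 0.35, SE 0.22). In each of these 4 comparisons the days overlapped.

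Of the 360 other tested genes of the chromosome, 1 was called in each of these settings. SDF2L1, an endoplasmic reticulum protein, fell in AF4-MLL cells by 0.71 (SE 0.17, edgeR adjusted p 0.0119). SUSD2, a membrane protein, rose in co-expression cells by 1.35 (SE 0.29, edgeR adjusted p 0.000998). Both are named after their values were seen.

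In MLL-AF4 cells the share of the chromosome, over the rows that RefSeq placed on it, was larger on day 28 than on day 3. So was the share of the members. In AF4-MLL cells the mean share of the chromosome was smaller on day 28. In co-expression cells the libraries of the days overlapped, and over tested genes only both means were 2.371%. Chromosome 22 took 2.06% ± 0.041 of nuclear counts (SD, n = 3) in MLL-AF4 cells on day 3 and 2.46% ± 0.026 on day 28. In AF4-MLL cells it took 2.38% ± 0.051 and 2.245% ± 0.037, and in co-expression cells 2.30% ± 0.045 and 2.28% ± 0.036. The 3 MLL-AF4 libraries of day 3 were the lowest of all, with 2.03% to 2.11%, and those of day 28 the highest, with 2.43% to 2.49%. This order rested on the total. With nuclear copies of mitochondrial genes kept in it, AF4-MLL cells were the highest on day 3 (2.222% to 2.262%) and had the lowest mean on day 28 (1.849%), while MLL-AF4 cells went from 1.913% to 2.036%. The chromosome was chosen with this share in view, so no test is given. The 33 members together took 0.1755% ± 0.0013 of nuclear counts in MLL-AF4 cells on day 3 and 0.2335% ± 0.008 on day 28. The other 4 groups lay between, from 0.205% to 0.213%. Chromosome 19 took 4.50% ± 0.051 and 5.42% ± 0.066 in MLL-AF4 cells on the 2 days, and chromosome 17 took 5.30% ± 0.025 and 6.19% ± 0.055.

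**Figure D2:**
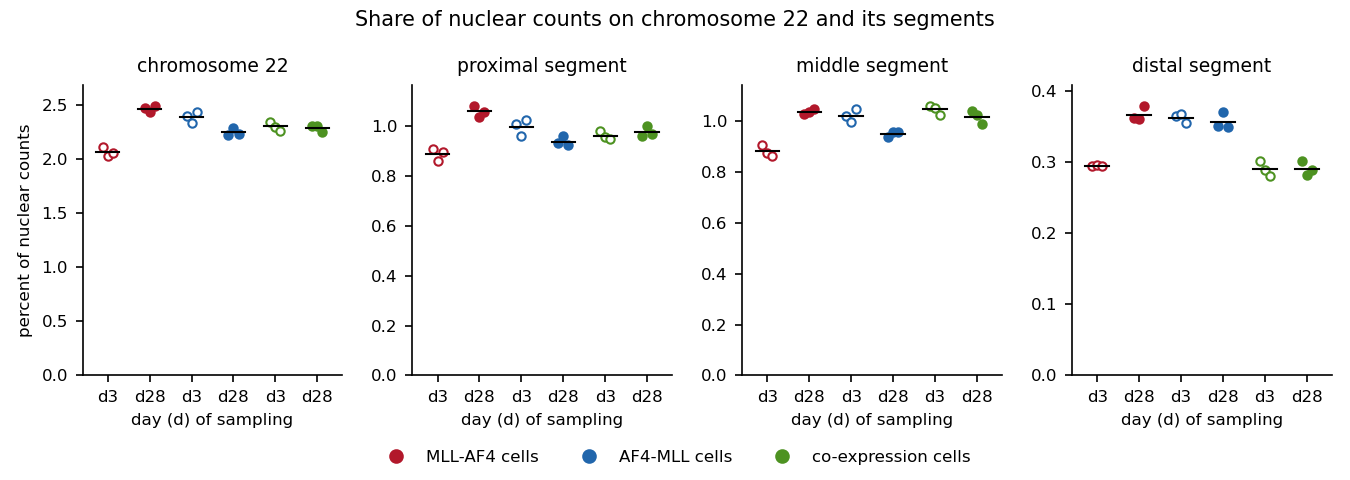
Percent of nuclear counts (y axis, from 0) on chromosome 22 and on its proximal, middle and distal segment in each library (points, open for day 3 and filled for day 28), by setting and day (x axis), with the mean of 3 libraries as a line. The MLL-AF4 libraries rise from day 3 to day 28 in every panel, and in the distal segment all 6 co-expression libraries lie between 0.28% and 0.301%.

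The order of the members gave 3 segments, each with 11 members. The members ran from DGCR8 to EWSR1 in the proximal, from NF2 to EP300 in the middle and from TCF20 to SHANK3 in the distal segment. For the shares, every gene placed on the chromosome was put in a segment by its RefSeq start. The proximal segment held all genes that start before NF2, also those before DGCR8. The middle segment ran from the start of NF2 to that of TCF20, and the distal one held the rest. In MLL-AF4 cells all 3 took a larger share on day 28. The proximal segment went from 0.887% ± 0.026 to 1.06% ± 0.021, the middle one from 0.881% ± 0.022 to 1.04% ± 0.011 and the distal one from 0.295% ± 0.001 to 0.367% ± 0.01. The distal segment differed from the middle one in how AF4-MLL and co-expression cells were ordered. AF4-MLL cells had 0.362% ± 0.007 and 0.357% ± 0.011 there on the 2 days, and co-expression cells 0.290% ± 0.011 and 0.290% ± 0.01. In the middle segment co-expression cells had 1.05% ± 0.018 and 1.02% ± 0.027, above the 1.02% ± 0.026 and 0.951% ± 0.012 of AF4-MLL cells. In the proximal segment the means changed order between days. Co-expression cells had 0.962% ± 0.018 and 0.976% ± 0.021 there, and AF4-MLL cells 0.9985% ± 0.032 and 0.938% ± 0.019.

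Between settings the direction turned with the day. On day 3 AF4-MLL cells lay above MLL-AF4 cells in 28 of 32 members (median log2 difference 0.23), and on day 28 they lay below in 22 (median −0.07). In 19 members the difference was positive on day 3 and negative on day 28. Co-expression cells lay above MLL-AF4 cells in 22 of 32 members on day 3 (median 0.26) and below in 21 on day 28 (median −0.16), with the same turn in 15 members. The turn was not one of the members alone. AF4-MLL cells lay above MLL-AF4 cells in 49.5% of all genes tested on day 3 and 50.3% on day 28. Among the other chromosome 22 genes these shares were 76.7% and 29.4%, on chromosome 17 67.2% and 29.0%, and on chromosome 19 75.0% and 38.5%. Co-expression cells lay above MLL-AF4 cells in 49.7% and 51.3% of all genes tested and in 65.6% and 38.3% of the other chromosome 22 genes. How many of all genes tested made such a turn was not counted. The comparisons of one day share the MLL-AF4 libraries, and each turn is by arithmetic a difference between the day changes of 2 settings. The members were chosen for these differences too, so they are a description. The medians of day 28, taken relative to all genes, moved with single libraries. That of co-expression from MLL-AF4 cells was −0.165 and became −0.073 without replicate 3 of MLL-AF4 cells. That of AF4-MLL from MLL-AF4 cells was −0.076 and ran from −0.149 without replicate 2 to −0.035 without replicate 3 of AF4-MLL cells.

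**Figure D3:**
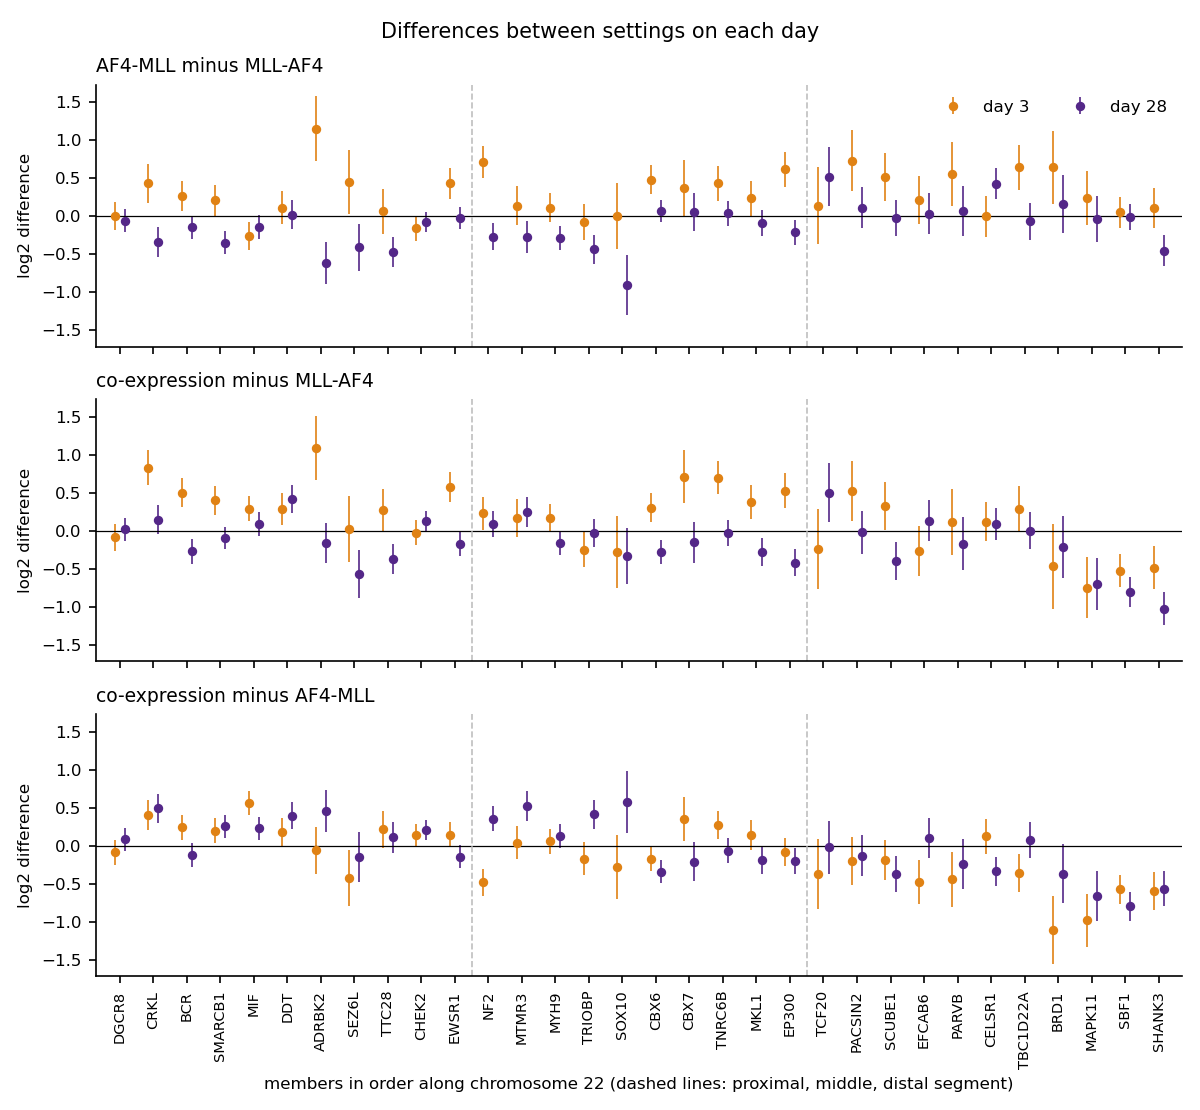
Log2 difference between settings (y axis, points) with its SE (bars) for the 32 tested members in order along chromosome 22 (x axis), on day 3 and on day 28. In the upper 2 panels most points of day 3 lie above 0 and most of day 28 below, and at the right end of the lower 2 panels MAPK11, SBF1 and SHANK3 lie below 0 on both days.

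Few members were called between settings. On day 3, 1 member was called between co-expression and MLL-AF4 cells, against 1.81% of all genes tested, and this was CRKL. It had 37.3, 28.3 and 40.99 CPM in co-expression cells against 21.2, 20.3 and 18.5 CPM in MLL-AF4 cells (log2 difference 0.835, SE 0.23), without overlap. This call did not hold when any of the 3 MLL-AF4 libraries of day 3 was left out, nor without replicate 1 or replicate 3 of co-expression cells. Between co-expression and AF4-MLL cells 1 member was called on day 3, against 1.28%, and this was MIF, higher in co-expression cells by 0.56 (SE 0.16) with overlapping libraries. It was no longer called when replicate 1 or 3 of AF4-MLL cells, or replicate 2 or 3 of co-expression cells, was left out, nor with a replicate block, a loess offset, no filter on low counts or the libraries of the contrast alone. Between AF4-MLL and MLL-AF4 cells no member was called on day 3, against 0.142% of genes, or on day 28, against 0.0793%, and DESeq2 called none. On day 3, 6 members and 1687 of the 17660 genes had an unadjusted p under 0.05 in that comparison, and on day 28, 7 members and 1459 genes.

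On day 28, 2 members were called between co-expression and MLL-AF4 cells, against 1.17%, and 1 between co-expression and AF4-MLL cells, against 1.69%. All were lower in co-expression cells and lie at the tip of the chromosome. SBF1 had 19.3, 31.3 and 21.9 CPM in co-expression cells on day 3 and 18.3, 18.1 and 31.9 CPM on day 28. MLL-AF4 cells had 37.9, 31.7 and 33.5 CPM and 35.4, 33.5 and 41.2 CPM, and AF4-MLL cells 33.4, 40.5 and 36.2 CPM and 36.5, 34.8 and 36.97 CPM. Every co-expression library lay below every library of the same day with a single fusion. The log2 difference on day 28 was −0.81 (SE 0.20) from MLL-AF4 cells and −0.80 (SE 0.19) from AF4-MLL cells.

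SHANK3, a scaffold protein of synapses, had 20.7, 14.9 and 9.56 CPM in co-expression cells on day 3 and 13.6, 21.2 and 10.6 CPM on day 28. MLL-AF4 cells had 20.1, 17.8 and 25.4 CPM and then 36.3, 32.4 and 27.8 CPM, so on day 28 the groups did not overlap (log2 difference −1.02, SE 0.22). AF4-MLL cells had 19.7, 15.9 and 30.8 CPM and then 24.1, 17.7 and 29.99 CPM, which overlapped with co-expression cells on both days (log2 difference −0.59, SE 0.25, and −0.57, SE 0.23). MAPK11 had fewer counts and was not called. It had 7.999, 3.73 and 7.51 CPM in co-expression cells on day 3 and 9.87, 3.73 and 6.65 CPM on day 28. MLL-AF4 libraries had 8.93, 12.7 and 11.6 CPM and then 11.5, 12.3 and 10.7 CPM, and AF4-MLL libraries 11.0, 17.4 and 13.1 CPM and then 13.0, 10.5 and 10.5 CPM. MAPK11 and SBF1 were the 2 members whose co-expression libraries lay below all AF4-MLL libraries on both days, against 2.08% of all genes tested, and both lay below all MLL-AF4 libraries as well. These calls also rested on single libraries of day 28. Leaving out replicate 1 of co-expression cells ended all of them, and leaving out replicate 2 ended both calls of SBF1 and kept that of SHANK3. Leaving out replicate 3 of MLL-AF4 cells ended the call of SBF1 against these cells. DESeq2 called no member between co-expression cells and either single fusion on day 3 or day 28.

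DDT, CBX6 and CBX7 gave no call in any comparison. DDT had 32.0, 34.3 and 40.3 CPM in co-expression cells on day 3 and 37.1, 40.5 and 27.9 CPM on day 28, beside 35.1, 26.0 and 29.3 CPM and 28.0, 29.8 and 25.1 CPM in AF4-MLL cells. CBX6 had 43.3, 40.3 and 45.8 CPM and 38.6, 46.1 and 35.9 CPM in co-expression cells, and 51.0, 50.6 and 44.7 CPM and 54.1, 51.4 and 49.5 CPM in AF4-MLL cells. CBX7 had 14.0, 15.7 and 15.03 CPM and 17.4, 14.9 and 7.98 CPM in co-expression cells, and 7.67, 17.4 and 13.9 CPM and 13.0, 20.4 and 17.4 CPM in AF4-MLL cells. The difference of co-expression from AF4-MLL cells on day 28 was 0.40 (SE 0.18) for DDT, −0.34 (SE 0.15) for CBX6 and −0.21 (SE 0.25) for CBX7. CRKL had 27.4, 24.6 and 27.7 CPM and 23.4, 29.3 and 16.0 CPM in AF4-MLL cells and 34.3, 31.8 and 31.9 CPM in co-expression cells on day 28.

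The difference at the tip was not one of the members alone. The 392 tested genes of the chromosome were put into 19 blocks of neighboring genes, 20 in each but 32 in the last, a division chosen after the data were seen. The last block ran from C22orf34 to RABL2B and held BRD1, MAPK11, SBF1 and SHANK3. Its median log2 difference of co-expression from AF4-MLL cells was −0.73 on day 3 and −0.66 on day 28, and from MLL-AF4 cells −0.43 and −0.68. In the block before it, from NUP50 to TBC1D22A, the same medians against AF4-MLL cells were −0.18 and −0.10. The blocks from RBX1 to NUP50-DT, which come before that one, were also negative. Their medians were −0.09, −0.11 and −0.19 on day 3 and −0.08, −0.07 and −0.27 on day 28. In this last block 26 of 32 genes were negative in all 4 of these differences (81.25%), and so were 22 of its 28 genes that were no members, against 11.7% of the genes in the other blocks and 15.8% of all genes tested. The differences of one day share the co-expression libraries. At the other end of the chromosome the first 2 blocks, which hold no member, were also lower in co-expression than in MLL-AF4 cells, by medians of −0.24 and −0.16 on day 3 and −0.36 and −0.37 on day 28. Against AF4-MLL cells their medians were −0.35 and −0.41 on day 3 and −0.13 and 0.01 on day 28. Between the single fusions the last block was like the one before it, with AF4-MLL cells above MLL-AF4 cells by medians of 0.33 and 0.32 on day 3. Between days, the last block changed by a median of 0.25 in MLL-AF4, −0.02 in AF4-MLL and 0.01 in co-expression cells.

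Counted within the chromosome, the step stood apart in every library. The last block took 4.26%, 4.35% and 4.31% of the counts on tested chromosome 22 genes in co-expression cells on day 3 and 4.47%, 4.16% and 4.38% on day 28. It took 6.68%, 6.67% and 6.34% and then 6.75%, 6.54% and 6.80% in MLL-AF4 cells, and 6.96%, 6.82% and 6.71% and then 6.78%, 7.25% and 6.83% in AF4-MLL cells. These shares rest on 290 to 1176 counts per library. The 6 co-expression libraries lay below the 12 others without overlap, on both days. MIRLET7BHG, the host gene of let-7 microRNAs, lies between PARVB and CELSR1 and so before the last block. Its log2 difference of co-expression from AF4-MLL cells was 1.31 on day 3 and 1.13 on day 28, and it is named after its values were seen. The number of DNA copies of the last block was not measured, and its part in the step was not tested.

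**Figure D4:**
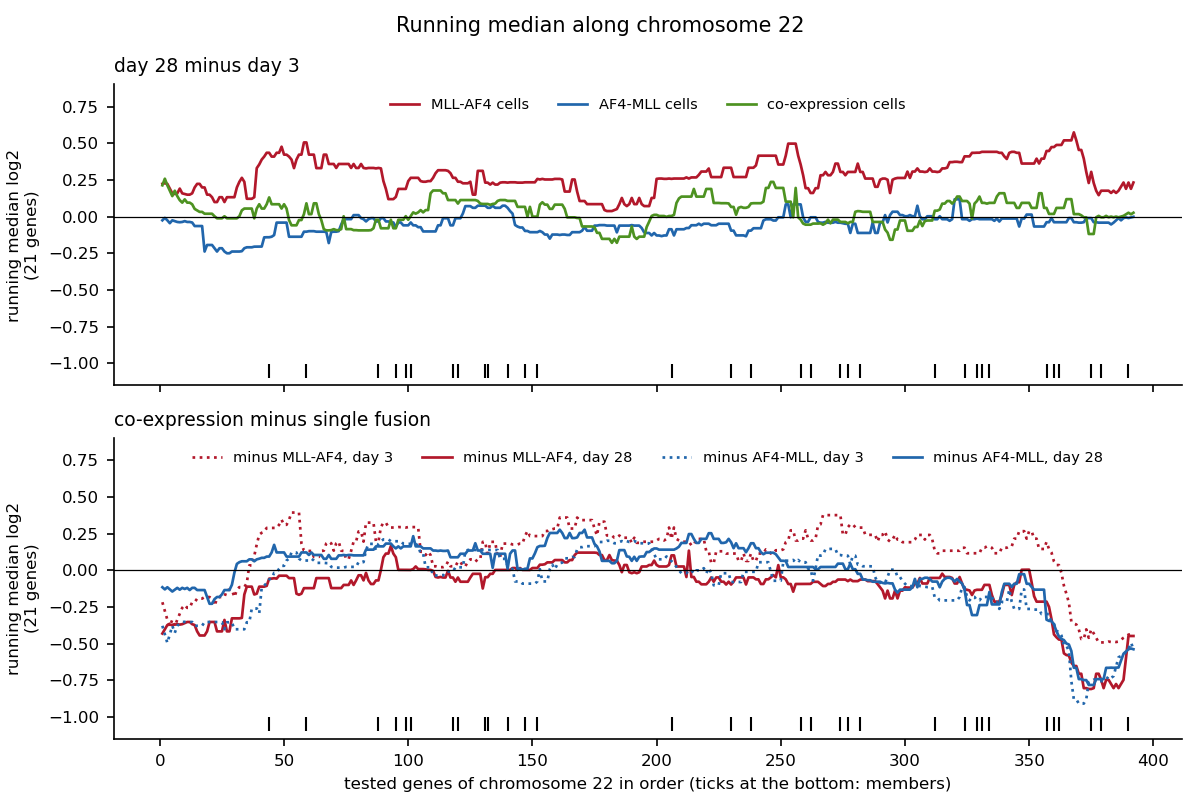
Running median of the log2 value over 21 neighboring tested genes (y axis) along the 392 tested genes of chromosome 22 in order (x axis), with members as ticks. The upper panel shows the change between days, with MLL-AF4 cells above 0 along the whole chromosome, and in the lower panel all 4 differences of co-expression cells drop at the last block.

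Of the members that overlap no other RefSeq gene, 5 were tested, CHEK2, EWSR1, CBX6, CBX7 and MAPK11. Their median change in MLL-AF4 cells was 0.50 and all 5 were positive, with CHEK2 at 0.10 (SE 0.16) and MAPK11 at 0.08. The 19 tested members that averaged 30 counts or more had a median of 0.465 and 17 were positive. The members were chosen for this contrast, so these values are a description and no check on overlap or depth. Over the 33 members the span of the gene and its mean count had a Spearman correlation of −0.227, and over 15486 tested genes with a span it was 0.059.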

How the data were processed

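ATAC-seq libraries of 18 HEK293T samples were analyzed. The authors deposited raw read counts per gene, whole numbers without normalization, and the submitters' processing notes name bcl2fastq, Bowtie2, HTSeq and GRCh38. The counted feature, the annotation, the treatment of duplicate reads and any shift of reads for the transposase cut are not given in the sources used here. Columns were matched to samples by title, with 0 unmatched. The members, lists and segments were chosen with earlier results of these data known.

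Genes were filtered with filterByExpr (at least 10 counts, total at least 15), and 17660 of 54425 rows were tested with the quasi-likelihood test of edgeR 4.0.16 (R 4.3.3, limma 3.58.1) over 6 groups with TMM scaling, at a Benjamini-Hochberg adjusted p of 0.05. The biological coefficient of variation was 7.48%. The steps were tested on simulated counts. DESeq2 1.42.0, other filters, scalings and sets of libraries, a loess offset (span 0.3) and a block for replicate number were alternatives. Libraries of the same replicate number had correlations of deviations between days from −0.042 to 0.018. These deviations also carry counting error, so values near 0 cannot show whether replicate numbers pair the libraries. No 2 libraries held identical counts.

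Values in every library are given for MIF, DDT, CBX6 and CBX7, for members called in a tested contrast, for the 2 members with the largest and the 2 with the smallest day change in MLL-AF4 cells, and for the 2 with the largest absolute difference of co-expression cells from each single fusion on each day, among members with a mean of at least 10 counts. After their values were seen, EP300, SMARCB1 and EWSR1 were added for the MLL-AF4 libraries and NF2 for all libraries. Positions came from RefSeq (GRCh38.p14), which matched 35443 rows, and MKL1 was matched as MRTFA. Rows without a match were given no chromosome. Shares of a chromosome or segment therefore cover matched rows, over a nuclear total that also holds rows without a match. Shares of counts carry counting error as well as the spread between libraries. A marker gene of another cell type is not reported here.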

Additional observations from a re-analysis of the deposited data

Results flagged for a closer look

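NF2, the gene of the tumor suppressor merlin, lay lower on day 28 than on day 3 in every AF4-MLL library and higher in every co-expression library. AF4-MLL cells had 43.3, 43.4 and 44.7 CPM on day 3 and 26.1, 33.7 and 31.4 CPM on day 28, a log2 change of −0.52 (SE 0.17). Co-expression cells had 34.0, 30.6 and 29.4 CPM on day 3 and 40.4, 39.2 and 35.9 CPM on day 28, a log2 change of 0.32 (SE 0.17). MLL-AF4 cells had 30.1, 22.8 and 26.6 CPM on day 3 and 29.7, 39.1 and 41.2 CPM on day 28. The change in AF4-MLL cells minus that in co-expression cells was −0.839 (SE 0.24), and the interaction did not pass over all genes tested (edgeR adjusted p 0.738). Its cause was not tested.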

How the results depend on the processing

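Each result was recomputed under 27 alternatives, 18 of them leaving out a library. In MLL-AF4 cells the day change called 5 members, all higher, and 3 with DESeq2. With library size only it called 9, all lower, among 11457 genes of which 11402 were lower. Scaling by library size alone shifted all genes by medians of −0.873, −1.06 and −1.07 in MLL-AF4, AF4-MLL and co-expression cells and called 29 and 28 members in the last 2, all lower, among 15485 and 15566 genes. Without a library the calls in MLL-AF4 cells ran from 1 to 5. On day 3, calls of co-expression against MLL-AF4 cells went from 1 to 2 with no filter, a mean of at least 30 counts or library size only, and to 0 with DESeq2. Against AF4-MLL cells the call of MIF went to 0 with a loess offset, no filter, a replicate block, only the libraries of the contrast, DESeq2 and library size only. On day 28, calls against MLL-AF4 cells went from 2 to 1 at a mean of at least 30 counts and to 0 with DESeq2, and those against AF4-MLL cells from 1 to 0 with DESeq2 and library size only. Without a library the 4 counts ran from 0 to 1 on day 3, from 0 to 2 against MLL-AF4 cells and from 0 to 1 against AF4-MLL cells on day 28. The replicate block changed no other count of called members. An alternative corrected for promoter GC was not run, because promoter GC was known for 26 of 33 members.

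The median of the members minus that of all genes was 0.382 in MLL-AF4 cells with no filter and 0.455 to 0.531 without a library. In AF4-MLL cells it was −0.046 with no filter and 0.009 to 0.107 without a library, and in co-expression cells 0.014 at a mean of at least 30 counts, 0.083 with only the libraries of the contrast and 0.063 to 0.256 without a library. On day 28, the median of co-expression minus MLL-AF4 cells ran from −0.167 to −0.073 and that of AF4-MLL minus MLL-AF4 cells from −0.149 to −0.035 without a library. The change of MIF in AF4-MLL cells turned to −0.006 with no filter, −0.103 without replicate 1 of day 3 and −0.13 without replicate 1 of day 28, and ran from −0.13 to 0.129 without a library. The share of chromosome 22 on day 3 and day 28 was 2.12% and 2.555% in MLL-AF4, 2.455% and 2.334% in AF4-MLL and 2.371% and 2.371% in co-expression cells over tested genes only. With nuclear copies of mitochondrial genes kept in the total, chosen after seeing the data, it was 1.913% and 2.036%, 2.242% and 1.849%, and 2.156% and 1.877%. Depth limited single members, whose median was 28 counts per library. The causes of these changes were not tested.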
